A study of Mus musculus with 20 samples.

Results

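The genes described here encode the nuclear subunits of the 5 complexes of oxidative phosphorylation, measured in mouse liver after treatment with interleukin-1β (IL-1β). They were chosen by symbol alone, as every row whose name follows the Nduf, Sdh, Uqcr, Cyc1, Cox4 to Cox8 or Atp5 pattern, which also takes in a few genes that are not subunits, named where they come up. The rule found 87 of the 37681 rows in each count table: 37 for complex I, 4 for complex II, 9 for complex III, 19 for complex IV and 18 for complex V. Of these, 80 passed the detection filter (at least 5 reads in at least 5 libraries of any table), as did 15578 genes in all.

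Libraries were made for each of 2 platforms, Illumina HiSeq and Ion Torrent Proton, from the livers of 10 male C57/BL6 mice (C57/B6J in the methods) aged 12 weeks. The treated group (ILB) was 5 mice given 20.0 µg/kg IL-1β, and the control group (UNT, called untreated) was 5 mice given saline by the same intraperitoneal route, with livers taken 4 h later. Both libraries of a mouse came from the same RNA, and reads of each platform were aligned with GSNAP, with STAR, or with STAR followed by Bowtie2, which gave 6 count tables. Each mouse carried no genetic change in the labels, and the liver RNA was whole tissue, so fewer cells of a type and less RNA per cell cannot be told apart in any value given here.

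Oxidative phosphorylation is the set of reactions in the inner mitochondrial membrane that turns the energy of NADH and succinate into ATP. Complex I oxidizes NADH and complex II oxidizes succinate, both hand electrons to coenzyme Q, complex III passes them to cytochrome c, complex IV reduces oxygen, and complex V, the ATP synthase, uses the proton gradient built along the way. Most subunits are encoded in the nucleus and imported, a core set is encoded by mitochondrial DNA, and complex II is the one complex whose subunits are all nuclear. Hepatocytes hold many mitochondria and draw on them for gluconeogenesis and urea synthesis. IL-1β is a cytokine of the acute phase response, in which the liver shifts its output toward acute phase proteins.

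Totals per library ran from 10568530 to 12008799 counts on Illumina and from 12199528 to 16439683 on Ion Torrent. The 37 rows for genes of the mitochondrial chromosome held 0 counts in every table, because the authors removed those reads, so the subunits encoded there are not analysed here. Summed hepatocyte markers were lower in treated mice, at 85173 to 96762 CPM (counts per gene scaled to the size of the library) against 105246 to 127525 in the Illumina GSNAP table, with 6 of 11 markers called lower and 2 higher. Summed neutrophil markers were 48.1 to 102 CPM in treated and 2.55 to 5.31 CPM in untreated mice, and all 6 tested markers rose. Summed Kupffer cell and macrophage markers were 74.8 to 174 against 138 to 236 CPM, and 4 of the 6 striated muscle markers were at 0 in every library of that table. The part of these shifts in cell markers in the results was not tested.

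The Illumina library of untreated mouse UNT_9584 stood apart. Over 11254 genes in the GSNAP tables, its root mean square log2 distance from the other untreated mice was 0.375, against 0.235 to 0.328 for the other Illumina libraries, and its deviations correlated with GC content (Spearman's rho -0.64 across genes). The Ion Torrent library of the same mouse was at 0.271 (rho 0.27). The study describes a shifted distribution of read lengths for that library, and its part in these results was not tested. Among the Ion Torrent libraries that of treated mouse ILB_9578 lay farthest, at 0.381 (rho -0.61) against 0.237 to 0.315 for the others, and that of treated mouse ILB_9583 had the strongest positive correlation with GC content (rho 0.64). Counts of called genes are therefore also given without these mice.

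As a group, the subunit genes were lower in IL-1β-treated livers. In the Illumina GSNAP table the 87 genes summed to 8914 ± 524 CPM (SD, n = 5) in treated and 10576 ± 735 CPM (SD, n = 5) in untreated mice, so that the treated level was 84.3% of the untreated. In the Ion Torrent GSNAP table the sums were 11289 ± 462 and 13124 ± 1026 CPM, or 86.0%. The highest treated mouse stood at 9452 CPM and the lowest untreated mouse at 9687 CPM on Illumina, and at 11834 and 11843 CPM on Ion Torrent, so the groups did not overlap in these tables, though on Ion Torrent they nearly touched. In the Ion Torrent STAR table they overlapped, with the highest treated mouse at 12768 CPM and the lowest untreated mouse at 12505 CPM.

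The fold changes behind this were small. The median log2 fold change over the 80 tested genes was -0.24 in the Illumina GSNAP table and -0.21 in the Ion Torrent GSNAP table, where the median over all 15578 genes was 0, and the median standard error of a single gene was 0.10 and 0.11. With edgeR's quasi-likelihood test at an adjusted p below 0.05, 39 of the 80 were called lower and 1 higher in the Illumina GSNAP table, where 23.9% of all genes were called lower and 23.7% higher. On Illumina with STAR, 37 were lower and 1 higher (all genes 22.9% and 22.7%), and with STAR + Bowtie2, 40 were lower and 1 higher (24.4% and 22.9%). The lower calls were 48.75%, 46.25% and 50% of the 80 genes.

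On Ion Torrent fewer genes passed. There 22 were called lower and 1 higher with GSNAP (all genes 23.9% and 22.5%), 18 and 1 with STAR (21.8% and 20.3%), and 26 and 1 with STAR + Bowtie2 (24.0% and 22.8%). Those lower calls were 27.5%, 22.5% and 32.5% of the 80 genes, so the Ion Torrent STAR share was close to that of all genes. The estimates nevertheless leaned the same way: 76, 71 and 75 of the 80 lay below 0 on Ion Torrent, and 69, 66 and 68 on Illumina.

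Without mouse UNT_9584 the lower calls were 36, 35 and 37 on Illumina and 16, 13 and 15 on Ion Torrent, in the order GSNAP, STAR and STAR + Bowtie2, where 22.4% to 23.8% of all genes were called lower on Illumina and 3117 to 3426 of the 15578 were on Ion Torrent. Without untreated mouse UNT_9580, which had the highest Atp5a1 level, they were 33, 30 and 37 on Illumina and 15, 10 and 15 on Ion Torrent, where 21.8% to 23.4% of all genes were lower on Illumina and 19.6% to 22.7% on Ion Torrent. With either mouse left out the Ion Torrent counts were thus no larger a share than over all genes, and the Illumina counts were a larger one. Without ILB_9578 the counts were 35, 27 and 35 on Illumina and 18, 13 and 25 on Ion Torrent, and without ILB_9583 they were 36, 31 and 35 and 26, 14 and 26, where 20.1% to 23.5% of all genes were called lower in each fit. Scaling set the level of these counts too. With library totals alone in place of TMM factors (trimmed mean of M values, the scaling used throughout), the median of all genes moved to between -0.09 and -0.11, higher calls fell from 49.8% to 38.8% of all Illumina GSNAP calls and from 48.4% to 38.6% of all Ion Torrent GSNAP calls, and 52 and 50 subunit genes were called lower, beside 29.0% and 28.5% of all genes. No called gene named here changed sign with the scaling.

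**Figure D1:**
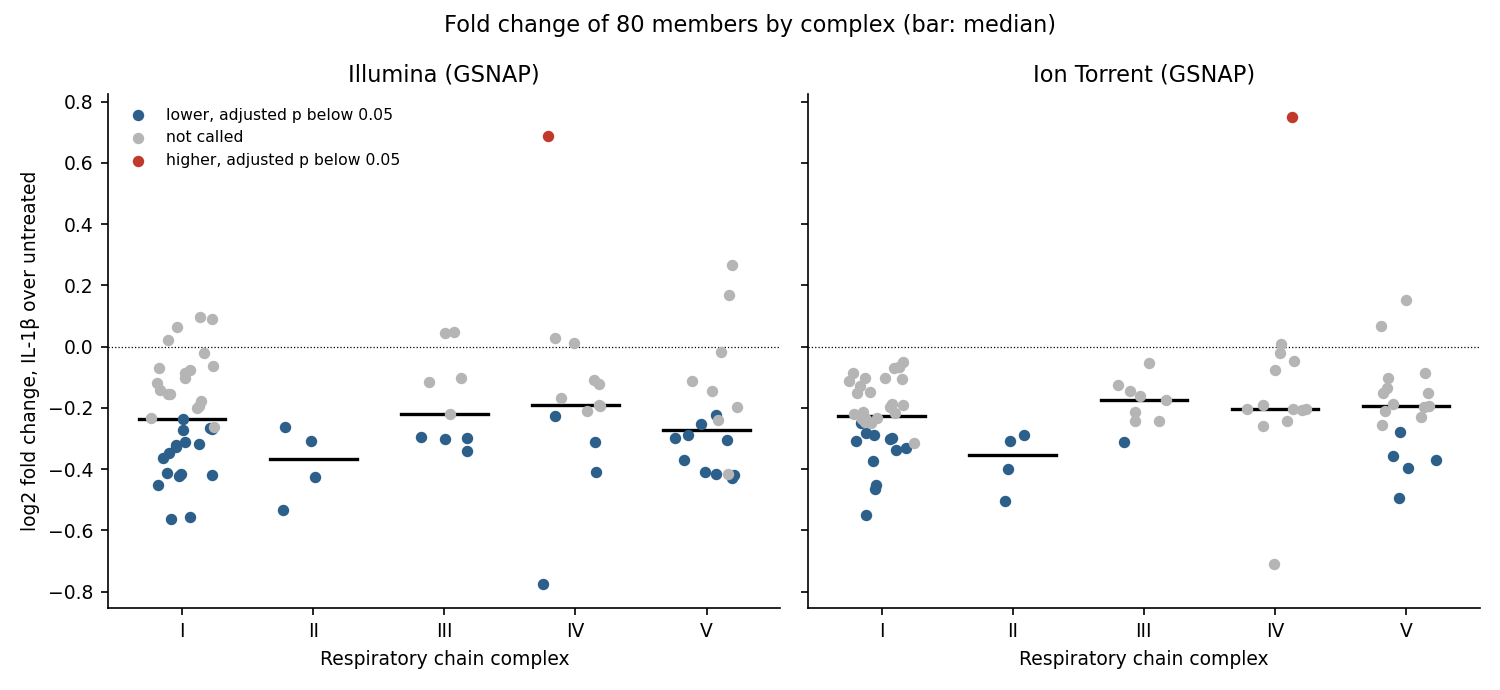
Log2 fold change, treated over untreated, of each of the 80 tested genes (points), grouped on the x axis by complex I to V, in the Illumina and Ion Torrent GSNAP tables. Most points lie below 0, all 4 complex II genes do on both platforms, and Cox4nb is the one gene called higher, at 0.69 and 0.75.

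Differences between complexes were not tested, and each is described by its own values. In complex II, all 4 subunit genes fell on both platforms with all 3 aligners, where 17.6% of all genes were called lower in all 6 tables. Their summed level in treated mice was 78.0% of the untreated level on Illumina and 78.7% on Ion Torrent, both with GSNAP. The sums were 919 ± 59.3 against 1179 ± 56.8 CPM on Illumina and 1004 ± 57.5 against 1275 ± 46.6 CPM on Ion Torrent (SD, n = 5). Complex II is also succinate dehydrogenase of the citric acid cycle. Values per mouse are in CPM, with untreated mice in the order UNT_9574, UNT_9575, UNT_9576, UNT_9580 and UNT_9584, and treated mice, which are given before them, from ILB_9577 through ILB_9578, ILB_9579 and ILB_9582 to ILB_9583.

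Sdha (chr13:74459702-74487728, minus strand, NCBIM37) encodes the flavoprotein that oxidizes succinate. On Illumina it stood at 446, 477, 527, 521 and 446 CPM in treated mice and at 574, 612, 581, 542 and 681 CPM in untreated mice. On Ion Torrent the values were 468, 489, 542, 549 and 474 against 614, 649, 596, 581 and 639 CPM. Every treated mouse lay below every untreated mouse on both platforms, as for 17.0% of all genes on each. The log2 fold change was -0.31 (SE 0.10, edgeR adjusted p = 0.0169) on Illumina and -0.29 (SE 0.09, edgeR adjusted p = 0.0162) on Ion Torrent.

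Sdhb (chr4:140517118-140535108, plus strand) encodes the iron-sulfur protein that carries the electrons onward. Its Illumina levels were 134, 107, 143, 133 and 150.4 CPM in treated and 159.9, 162, 199.9, 205 and 171 CPM in untreated mice. Its Ion Torrent levels were 209, 213, 237, 203 and 234 against 252, 269, 293, 304 and 327 CPM. The groups were again separate, with log2 fold changes of -0.42 (SE 0.11, edgeR adjusted p = 0.0055) and -0.40 (SE 0.10, edgeR adjusted p = 0.00341).

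Sdhc (chr1:173057296-173080734, minus strand) and Sdhd (chr9:50404443-50411954, minus strand) encode the membrane anchors that hold the coenzyme Q site. Sdhc was at 148, 130.4, 152, 149 and 152 CPM in treated and 158, 172, 184, 183 and 181 CPM in untreated mice on Illumina. It was at 149, 132, 148, 138 and 161 against 162, 177, 188, 184 and 190.3 CPM on Ion Torrent. On Ion Torrent the highest treated mouse thus nearly reached the lowest untreated mouse. The log2 fold changes of Sdhc were -0.26 (SE 0.08, edgeR adjusted p = 0.0197) on Illumina, the smallest of the complex there, and -0.31 (SE 0.09, edgeR adjusted p = 0.0114) on Ion Torrent. With no filter on low counts the Illumina GSNAP call for Sdhc was lost (edgeR adjusted p = 0.0513).

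Sdhd had the largest change of the 4. It was at 149, 139, 166, 171 and 154 CPM in treated and 218, 229, 246, 214 and 222 CPM in untreated mice on Illumina. On Ion Torrent it was at 125, 115, 147, 162 and 122 against 181, 196, 217, 181 and 175 CPM. On Illumina the gap between the groups was wider than the spread within either, and on Ion Torrent the groups were separate with a narrower gap. The log2 fold change was -0.53 (SE 0.09, edgeR adjusted p = 0.000168) on Illumina and -0.50 (SE 0.11, edgeR adjusted p = 0.00156) on Ion Torrent. Over the 6 tables it ran from -0.56 to -0.50, and over the 10 fits that each left out 1 mouse from -0.59 to -0.50 on Illumina and from -0.58 to -0.45 on Ion Torrent. All 4 complex II genes stayed called in all 6 tables without mouse UNT_9584 and without mouse UNT_9580. With STAR the Sdha call was lost on Illumina without ILB_9577 or ILB_9583 (edgeR adjusted p = 0.0531 and 0.0514) and on Ion Torrent without ILB_9577, ILB_9583 or UNT_9575 or with no filter on low counts (edgeR adjusted p from 0.0539 to 0.0698).

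The start regions of 3 of these genes are shown as examples with and without factor motifs that are known from genes of respiration. NRF1 and GABPA (also called NRF2) are transcription factors whose sites are found before many respiratory genes. In the RefSeq promoter table (GRCm38.p6), the stretches shown end at the last base before the annotated start. Those of Sdha and Sdhd were cut where a neighbouring gene begins, and that of Sdhb spans 150 bases with no neighbouring gene. Capitals mark a match to GCATGCG (NRF1) or CCGGAAG (the ETS core bound by GABPA), searched on both strands. The stretches are chr13:74350241-74350316 (minus strand) for Sdha, chr4:140961121-140961270 (plus strand) for Sdhb and chr9:50603850-50603900 (minus strand) for Sdhd.
Sdha: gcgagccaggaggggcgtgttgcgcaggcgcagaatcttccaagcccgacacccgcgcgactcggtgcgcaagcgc
Sdhb: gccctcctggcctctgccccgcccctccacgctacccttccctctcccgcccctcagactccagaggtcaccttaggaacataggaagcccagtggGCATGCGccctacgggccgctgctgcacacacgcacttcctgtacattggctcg
Sdhd: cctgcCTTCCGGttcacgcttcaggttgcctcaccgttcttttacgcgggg
The Sdhb match began 54 bases before the start, and the Sdhd match, which reads CCGGAAG on the other strand, began 46 bases before it. Sdhb also held CCGGAAG from 7 bases after the start, outside the stretch shown, so 2 of the 3 genes had that motif in their windows. The stretch of Sdha held neither motif nor AAGATGGC, the YY1 motif. The table held a window from 250 bases before to 50 bases after the start for 66 of the 80 tested genes. CCGGAAG was found in 16 of those 66 (24.2%) and in 9.93% of the 27025 genes with a window, GCATGCG in 11 (16.7%) and 4.01%, and AAGATGGC in 11 (16.7%) and 3.19%. Among the 14 genes with a window that were called lower in all 6 tables, the counts were 3, 2 and 2. These are letter matches, not measured sites.

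Of complex I, 17 of 36 tested genes fell in the Illumina GSNAP table and 12 in the Ion Torrent GSNAP table (all genes 23.9% in both), with medians of -0.24 and -0.23. The summed level in treated mice was 84.7% and 84.8% of the untreated level. Without mouse UNT_9584 the lower calls were 15 and 8, the latter about the share of all genes. Ndufa6 and Ndufb10 led the complex. Ndufa6 (chr15:82180569-82184721, minus strand) encodes an accessory subunit of the matrix arm, the part that takes up NADH. It was at 69.7, 53.3, 68.5, 65.6 and 68.5 CPM in treated and 84.9, 85.6, 101, 105 and 105 CPM in untreated mice on Illumina. On Ion Torrent the values were 135, 142, 144, 145 and 111 against 166, 179.7, 183, 218 and 187 CPM. The groups were separate on both platforms, and the log2 fold change was -0.56 (SE 0.10, edgeR adjusted p = 0.000409) on Illumina and -0.46 (SE 0.10, edgeR adjusted p = 0.00178) on Ion Torrent.

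Ndufb10 (chr17:24859005-24861423, minus strand) encodes an accessory subunit of the membrane arm, the proton-pumping part. Its levels were 60.7, 54.1, 64.2, 60.1 and 63.4 CPM in treated and 77.6, 85.3, 97.8, 101 and 83.1 CPM in untreated mice on Illumina. On Ion Torrent they were 120.5, 104, 123, 121 and 130.2 against 140.0, 172, 176, 183 and 205 CPM. No treated mouse reached an untreated one, with log2 fold changes of -0.56 (SE 0.10, edgeR adjusted p = 0.000249) and -0.55 (SE 0.11, edgeR adjusted p = 0.000636). Over the 6 tables the values of Ndufb10 stayed within -0.56 to -0.52 and those of Ndufa6 within -0.60 to -0.43.

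The 7 nuclear core subunits of complex I, which carry the cofactors from NADH to coenzyme Q, were not alike. Ndufs1, Ndufs3 and Ndufv2 fell on Illumina, and Ndufs1, Ndufv2 and Ndufs7 fell on Ion Torrent. Ndufv2, which holds an iron-sulfur cluster near the NADH site, changed by -0.45 (SE 0.09, edgeR adjusted p = 0.000921) and -0.31 (SE 0.10, edgeR adjusted p = 0.0157). Ndufs1, the largest subunit of the matrix arm, was at 104, 111, 121, 119.7 and 106 CPM against 148, 141, 142, 121 and 172 CPM on Illumina, where one untreated mouse sat at the level of the highest treated mouse. Its log2 fold change was -0.37 (edgeR adjusted p = 0.00763), and -0.29 (edgeR adjusted p = 0.0234) on Ion Torrent, a call that was lost without ILB_9577 and without UNT_9575. Ndufs1 shares exon bases with an annotation on the other strand.

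Ndufv1, which binds NADH itself, did not pass, at -0.12 (edgeR adjusted p = 0.408) and -0.22 (edgeR adjusted p = 0.0756). Ndufs7, which holds the last iron-sulfur cluster of the chain, was called on Ion Torrent only, and its platform-by-treatment term did not pass (unadjusted p = 0.0708 with GSNAP). On Ion Torrent it was at 85.9, 65.8, 81.3, 71.0 and 88.5 against 94.4, 89.0, 112, 108 and 104 CPM, a change of -0.37 (edgeR adjusted p = 0.0098). On Illumina its untreated values were 35.9, 29.4, 49.0, 50.4 and 18.7 CPM, the last from mouse UNT_9584, against 24.2 to 41.6 CPM in treated mice, and the change was -0.10 (edgeR adjusted p = 0.754).

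By name series, 6 of 13 Ndufa, 6 of 10 Ndufb, 1 of 2 Ndufc and 4 of 11 Ndufs and Ndufv genes fell in the Illumina GSNAP table. In the Ion Torrent GSNAP table the counts were 3, 5, 0 and 4, beside 23.9% of all genes in either table. Ndufb3, Ndufb5 and Ndufb8 of the membrane arm changed by -0.41, -0.42 and -0.33 on Illumina and by -0.34, -0.33 and -0.30 on Ion Torrent. Ndufa10 changed by -0.32 and -0.30, and Ndufv3 by -0.42 and -0.45. On Ion Torrent the call of Ndufa10 was lost in 4 of the 10 fits without 1 mouse (ILB_9577, ILB_9578, UNT_9580 or UNT_9584) and that of Ndufb8 in 3 (ILB_9578, UNT_9580 or UNT_9584). Ndufa4, named for complex I and now assigned to complex IV, had the highest Illumina GSNAP level per length of all 80 genes, 609 ± 71.1 CPM per kb of exon in untreated mice (SD, n = 5). It fell on Illumina, by 0.27 on the log2 scale (edgeR adjusted p = 0.0376), and was at -0.11 on Ion Torrent (edgeR adjusted p = 0.382). The Illumina call was lost in 4 of the 10 fits without 1 mouse, those without ILB_9577, ILB_9583, UNT_9575 or UNT_9584 (edgeR adjusted p up to 0.0894).

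In complex III, edgeR called 4 of 9 genes lower on Illumina and 1 on Ion Torrent, where 23.9% of all genes were on each platform. In the GSNAP tables DESeq2 and limma-voom each called 5 lower on Illumina and 3 on Ion Torrent, and their shares of all genes were not computed. The medians were -0.22 and -0.17, and the summed levels of treated mice were 86.7% and 88.2% of the untreated levels. The summed levels of the groups overlapped in both GSNAP tables, as did those of complex I on Ion Torrent with GSNAP, whereas those of complexes II and V were separate in all 6 tables. No complex III gene was called in all 6 tables. Uqcrfs1, the Rieske iron-sulfur protein, was at 160.0, 161, 182, 171 and 162 against 194, 203, 213, 189 and 231 CPM on Illumina, and there the groups were separate. Its change was -0.30 (edgeR adjusted p = 0.00991) on Illumina and -0.21 (edgeR adjusted p = 0.0644) on Ion Torrent, where the groups overlapped. Uqcrc2, a core protein, Uqcrh, the hinge protein, and Uqcrb, a small accessory subunit, fell on Illumina by 0.30, 0.30 and 0.34 on the log2 scale. The Uqcrb call was lost without mouse UNT_9584, at -0.24 (edgeR adjusted p = 0.0561).

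Cyc1, the cytochrome c1 haem protein, did not pass, at -0.22 (edgeR adjusted p = 0.0547) and -0.24 (edgeR adjusted p = 0.076), with separate groups on Illumina only. Uqcrc1, the other core protein, was at -0.12 (edgeR adjusted p = 0.438) and -0.24 (edgeR adjusted p = 0.0539). The one complex III call that edgeR made in the Ion Torrent GSNAP table was Uqcr10, a small subunit, at -0.31 (edgeR adjusted p = 0.0359). On Illumina Uqcr10 was at -0.10 (edgeR adjusted p = 0.67). The Ion Torrent call was lost without mouse UNT_9584 (edgeR adjusted p = 0.0863), mouse UNT_9580 (edgeR adjusted p = 0.0965) or mouse ILB_9578 (edgeR adjusted p = 0.0799). That left 0 of 9 called by edgeR in each of these fits. On Illumina, mouse UNT_9584 had the lowest Uqcr10 level of all 10 mice, 43.2 CPM.

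Complex IV changed least by summed level, to 91.2% on Illumina and 93.0% on Ion Torrent, and the groups overlapped in every table, as with 1325 CPM in the highest treated and 1217 CPM in the lowest untreated mouse on Illumina with GSNAP. Of its 13 tested genes, 4 fell and 1 rose on Illumina, and 0 fell and 1 rose on Ion Torrent with GSNAP, where 23.9% of all genes fell on each. On Illumina 2 fell without UNT_9580 and 2 without ILB_9583, and on Ion Torrent 1 fell without ILB_9578 and 1 without ILB_9583. In these fits 22.7% to 23.3% of all genes fell. On Ion Torrent with all mice edgeR had 3 lower at an unadjusted p below 0.05, and DESeq2 and limma-voom called 0 at an adjusted p and 2 and 5 at an unadjusted p. The share of all genes at an unadjusted p or by these 2 tools was not computed, so these counts have no background beside them. Cox5a, an accessory subunit, was at 95.7, 93.5, 107, 109 and 106 against 126, 127, 135, 127 and 164 CPM on Illumina, a change of -0.41 (SE 0.10, edgeR adjusted p = 0.00297). On Ion Torrent it was at 76.2, 83.6, 88.8, 93.4 and 60.8 against 94.8, 93.2, 99.3, 98.1 and 96.1 CPM, with the groups touching, and the change of -0.26 did not pass (edgeR adjusted p = 0.068). Cox7b and Cox7a2l, the latter a factor that joins complexes III and IV into supercomplexes, fell on Illumina by 0.31 and 0.23 on the log2 scale. The Cox7a2l call was made in 1 of the 6 tables and was lost in 7 of the 10 fits without 1 mouse, all but those without ILB_9578, ILB_9582 or UNT_9584 (edgeR adjusted p up to 0.0835).

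Cox4i1, the most abundant per length of the genes with complex IV symbols, at 407 ± 64.9 CPM per kb on Illumina and 688 ± 55.8 CPM per kb on Ion Torrent (SD, n = 5), did not differ between the groups beyond their spread. It was at 286, 247, 285, 277 and 312 against 248, 254, 325, 323 and 232 CPM on Illumina, and the log2 fold change was 0.03 (edgeR adjusted p = 0.887) and -0.05 (edgeR adjusted p = 0.694) on Ion Torrent. The isoforms of complex IV subunits known from muscle, lung or testis were low. Cox7a1, the isoform of heart and muscle, had at most 1.42 CPM in a library on Illumina, with mean counts of 6.8 in treated and 13.2 in untreated mice, and its change was -0.78 (SE 0.28, edgeR adjusted p = 0.0353) on Illumina and -0.71 (edgeR adjusted p = 0.0845) on Ion Torrent. The Illumina call of Cox7a1 was lost with DESeq2 (adjusted p = 0.0796) and in 5 of the 10 fits without 1 mouse, those without ILB_9579, ILB_9582, ILB_9583, UNT_9576 or UNT_9580. Cox7a2, the broadly expressed isoform, was at -0.12 and 0.01 without passing. Cox4i2, Cox6a2, Cox6b2, Cox7b2, Cox8b and Cox8c did not pass the detection filter, with group means of at most 2.4 counts.

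The one symbol match that rose was Cox4nb, which is no subunit of complex IV: it lies next to Cox4i1 and is now named Emc8, for a subunit of the membrane protein insertion complex of the endoplasmic reticulum. Cox4nb (chr8:123177814-123192012, minus strand) was at 33.7, 38.8, 29.9, 37.8 and 44.8 CPM in treated and 25.5, 23.4, 26.8, 18.1 and 20.8 CPM in untreated mice on Illumina. On Ion Torrent it was at 49.7, 52.7, 42.7, 53.7 and 61.2 against 30.5, 32.4, 30.6, 26.7 and 34.4 CPM. All treated mice lay above all untreated mice (as for 18.2% of all genes on Illumina and 16.8% on Ion Torrent), and the log2 fold change was 0.69 (SE 0.13, edgeR adjusted p = 0.000564) and 0.75 (SE 0.11, edgeR adjusted p = 5.65e-05). Cox4i1 (chr8:123192190-123198109, plus strand) starts 178 bases away on the other strand, so the 2 genes share a start region and moved by 0.69 and 0.03 on Illumina. Other symbol matches that are not subunits are Atp5l2, annotated as a pseudogene and a near-identical copy of Atp5l, Atp5s, at -0.24 and -0.21 without passing, and Atp5sl, which fell by 0.42 and 0.49 on the log2 scale.

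In complex V, 10 of 18 genes fell on Illumina and 5 on Ion Torrent (all genes 23.9%), and the summed levels were 82.7% and 85.5%. Without UNT_9584 the lower calls were 9 and 4, and without UNT_9580 they were 7 and 3, so the Ion Torrent share was near that of all genes or below it. Atp5a1, the α subunit of the catalytic head, had the highest Illumina level per length of the complex. It was at 882, 782, 924, 906 and 903 CPM in treated and 960.0, 958, 1091, 1612 and 1060 CPM in untreated mice on Illumina. On Ion Torrent it was at 834, 745, 862, 869 and 856 against 953, 928, 1009, 1522 and 974 CPM. The groups were separate, but mouse UNT_9580 stood far above the other untreated mice on both platforms. The log2 fold change was -0.37 (SE 0.14, edgeR adjusted p = 0.0396) and -0.37 (SE 0.13, edgeR adjusted p = 0.0313), and without mouse UNT_9580 it was -0.21 on both platforms and was no longer called (edgeR adjusted p = 0.0995 and 0.111). The call was lost in 6 of the 10 fits without 1 mouse on each platform. Those were without ILB_9577, ILB_9578, ILB_9582, ILB_9583 or UNT_9580 on both platforms, and also without UNT_9576 on Illumina and ILB_9579 on Ion Torrent, where, UNT_9580 apart, the adjusted p was 0.0504 to 0.0762 and the change stayed between -0.40 and -0.33. It was lost with limma-voom on Illumina too (adjusted p = 0.0554).

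Atp5b, the β subunit that makes ATP, did not pass, at -0.20 (edgeR adjusted p = 0.0857) and -0.15 (edgeR adjusted p = 0.184), although all treated mice lay below all untreated mice on Illumina. Atp5c1, the rotating γ subunit, fell by 0.41 on the log2 scale on Illumina and by 0.28 on Ion Torrent, where the call was lost without UNT_9580 (edgeR adjusted p = 0.0571) and without UNT_9584 (edgeR adjusted p = 0.0514). The 4 subunits of the peripheral stalk, which holds the head still, all fell in the Illumina GSNAP table: Atp5h by 0.43, Atp5j by 0.42, Atp5o by 0.31 and Atp5f1 by 0.22 on the log2 scale. Atp5f1 was near the threshold there (edgeR adjusted p = 0.0475), was lost without UNT_9584, UNT_9580 or ILB_9578, and did not pass in the Illumina STAR table (edgeR adjusted p = 0.0659). On Ion Torrent Atp5h and Atp5o fell, by 0.36 and 0.40. Of the 3 genes that encode the same c-ring protein, Atp5g3 fell on Illumina, by 0.29 (edgeR adjusted p = 0.0224), Atp5g1 was at 0.17 and 0.15 without passing, and Atp5g2 was at -0.42 and -0.10 without passing. Without mouse UNT_9580, Atp5g1 was called higher on Illumina, at 0.26 (edgeR adjusted p = 0.0324) with GSNAP.

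In each of the 6 tables the same 17 of the 80 genes were called lower, and 17.6% of all genes were, so this share was not far from that of all genes. They were all 4 of complex II, 9 of complex I (Ndufa6, Ndufa10, Ndufb3, Ndufb5, Ndufb8, Ndufb10, Ndufs1, Ndufv2 and Ndufv3) and Atp5a1, Atp5h, Atp5o and Atp5sl of the complex V names. None was of complex III or IV. Without mouse UNT_9584, 12 of the 17 were still called in all 6 tables, and Ndufa10, Ndufb5, Ndufb8, Ndufs1 and Atp5h were not. Without mouse UNT_9580, 10 of the 17 were, and Atp5a1 and Atp5sl joined those 5. Without ILB_9578 12 of the 17 were, and without ILB_9583 11 were, Sdha not among them. Counting every gene so called, 12, 10, 13 and 11 of the 80 were lower in all 6 tables in the same fits. Over all genes 16.8%, 15.8%, 16.2% and 15.9% were, so these shares were close to those of all genes or below them. At the other end, 35 of the 80 were called lower in none of the tables, a count that was not made over all genes. Without any test, all treated mice lay below all untreated mice for 32, 30 and 33 of the 80 on Illumina, where 17.0%, 16.2% and 17.4% of all genes did so, and for 16, 13 and 20 on Ion Torrent, where 17.0%, 15.6% and 17.2% did.

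Both library kits keep the strand, but whether the counting used it is not given in the sources used here. Of the tested genes, 17 share exon bases with another annotated gene, 16 of them with one on the opposite strand and 3 with one on the same strand, and reads there may belong to either. They include Ndufb5, Ndufb8, Ndufs1, Cox5a and Atp5o, and Atp5j, which overlaps Gabpa.

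Genes around the complexes were read from lists of assembly factors, carriers and regulators. Of 20 regulators of mitochondrial biogenesis, 6 fell and 5 rose on Illumina, and 6 fell and 6 rose on Ion Torrent (GSNAP). Over all genes 23.9% were lower and 23.7% higher on Illumina, and 23.9% and 22.5% on Ion Torrent, so these shares were near those of all genes. Ppargc1a, the coactivator PGC-1α that drives respiratory gene expression, fell, with log2 fold changes of -1.30 (SE 0.34, edgeR adjusted p = 0.00574) and -1.53 (SE 0.36, edgeR adjusted p = 0.00236), with overlapping groups. Its relative Ppargc1b went from 5.65 ± 3.42 CPM in untreated to 0.848 ± 0.589 CPM in treated mice on Illumina (SD, n = 5), a log2 fold change of -2.71, and -2.98 on Ion Torrent. Esrra, the nuclear receptor ERRα that works with both, was at 21.1 ± 7.04 and 9.15 ± 2.67 CPM, a change of -1.21, and -1.37 on Ion Torrent.

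Tfam, which packages and transcribes mitochondrial DNA, fell by 0.54 and 0.41 on the log2 scale, and Polg2, the accessory subunit of the mitochondrial DNA polymerase, by 2.59 and 2.18. Of the factors named for the motifs above, Nrf1 rose by 0.61 (edgeR adjusted p = 0.000351) and 0.50 (edgeR adjusted p = 0.00397), and Yy1 rose by 0.48 (edgeR adjusted p = 0.00339) and 0.52 (edgeR adjusted p = 0.0012). Gabpa did not pass, at 0.18 (edgeR adjusted p = 0.0935) and 0.29 (edgeR adjusted p = 0.0536) with GSNAP. Pprc1, another coactivator of the PGC-1 family, rose by 1.69 and 1.54, and Hcfc1, a cofactor of GABPA, rose by 0.91 and 0.77. These calls held in all 6 tables for each of the named regulators other than Gabpa, which was called higher in the Ion Torrent STAR table only.

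Assembly factors, which build the complexes and are not part of them, were lower more often than higher, where all genes were called lower and higher about equally (the shares just given). Of 13 for complex I, 8 fell and 1 rose on Illumina, and 7 fell and 1 rose on Ion Torrent, with medians of -0.44 and -0.49. Ndufaf4 fell by 0.72 and 0.59, Tmem126b fell by 0.66 and 0.40, and Foxred1 rose by 0.67 and 0.63 on the log2 scale. The Ion Torrent call of Tmem126b was lost in 6 of the 10 fits without 1 mouse, those without ILB_9579, ILB_9582, ILB_9583, UNT_9574, UNT_9575 or UNT_9580 (edgeR adjusted p up to 0.12). Of 29 for complexes II to V, 12 fell and 1 rose on Illumina, and 11 fell on Ion Torrent. Both leading genes of that list serve complex II: Sdhaf1, which helps fit the iron-sulfur clusters of Sdhb, fell by 1.01 (edgeR adjusted p = 0.000333) and 0.94 (edgeR adjusted p = 0.00166), and 1110058L19Rik, now named Sdhaf4, which attends Sdha, fell by 0.82 and 0.59.

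Of 16 genes of electron carriers and coenzyme Q synthesis, 6 fell on Illumina and 5 on Ion Torrent, where 23.9% of all genes fell on each. Adck3, now named Coq8a, went from 156 ± 22.9 to 47.0 ± 22.6 CPM on Illumina (SD, n = 5), a change of -1.73, and -1.64 on Ion Torrent, and Coq9 fell by 0.66 and 0.75. Cycs, cytochrome c itself, was at -0.22 (edgeR adjusted p = 0.359) and 0.11 (edgeR adjusted p = 0.635). Of 18 citric acid cycle genes, 9 fell and 1 rose on Illumina and 8 fell and 1 rose on Ion Torrent, against the same 23.9% of all genes lower. The list holds no complex II gene. Dlat, of the pyruvate dehydrogenase complex, fell by 0.88 and 0.72 and Idh3a by 0.61 and 0.51. Fh1, the fumarase that acts on the product of complex II, rose by 0.64 (edgeR adjusted p = 0.000112) and 0.65 (edgeR adjusted p = 2.67e-05).

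Of 7 genes of ADP and ATP exchange and uncoupling, 3 fell on each platform (all genes 23.9%), among them Vdac1, a channel of the outer membrane, by 0.57 and 0.57, and Slc25a5, an ADP/ATP carrier, by 0.31 and 0.30. Of 5 subunits whose names fall outside the symbol rule, 2 fell on each platform (all genes 23.9%), among them Ndufa4l2, an Ndufa4 paralogue, at -2.84 and -1.37, from 1.13 ± 0.423 and 1.23 ± 0.258 CPM in untreated mice. The 76 mitochondrial ribosomal protein genes gave 17 lower and 6 higher calls on Illumina and 12 lower and 7 higher on Ion Torrent, with medians of -0.03 and -0.02, a smaller share in each direction than over all genes. Mrpl49 fell by 1.24 and 1.04 and Mrpl15 by 0.88 and 0.63, while Mrps18b rose by 0.87 and 0.70 and Mrps23 by 0.46 and 0.28. The Ion Torrent call of Mrps23 was lost without TMM factors, at 0.17 (edgeR adjusted p = 0.154), and with no filter (0.0507), and the rank-sum test on the unscaled counts made no call for it in any of the 6 tables. The lists share libraries with the subunit genes, so they are no independent measurement of the mice.

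The platforms were compared by a platform-by-treatment term with mouse as a block, over all 20 libraries of an aligner. No subunit gene had an adjusted p below 0.05 by edgeR with any of the 3 aligners, and 0.0642%, 0.00642% and 0.0770% of all genes did. At an unadjusted p below 0.05 there were 2, 6 and 3 of the 80, against 7.80% of all genes with GSNAP, 1090 of the 15578 with STAR and 7.77% with STAR + Bowtie2. By limma-voom there were 0 adjusted and 4, 4 and 3 unadjusted (all genes unadjusted 7.86% to 8.17%). The unadjusted counts moved with single mice. Without ILB_9583 they were 15, 12 and 17 (all genes 8.70% to 11.2%), without UNT_9580 they were 13, 13 and 17 (all genes 10.1% to 11.3%), and without UNT_9584 they were 9, 7 and 5 (all genes at most 6.77%), with none at an adjusted p below 0.05 in any of these fits. The difference in the number of calls between the platforms was therefore not matched by a gene whose change was shown to differ. Atp5j, at 0.20, 0.23 and 0.23, and Ndufa11, at -0.36, -0.35 and -0.37 (Ion Torrent minus Illumina, log2), had an unadjusted p below 0.05 with each aligner.

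Across genes the platform-by-treatment term went with GC content, less closely without mouse UNT_9584. Over the 80 genes, Spearman's rho between the term and the GC percentage of the exons was -0.51, -0.60 and -0.64 with the 3 aligners, where it was -0.37, -0.34 and -0.38 over all 15578 genes. The higher the GC content of a gene, the further its Ion Torrent change tended to lie below its Illumina change. Split at 48.4% and 52.6% GC, the lower calls were 16 of 27, 15 of 26 and 8 of 27 from low to high GC content in the Illumina GSNAP table, and 6, 8 and 8 in the Ion Torrent GSNAP table. Over all genes in the same ranges 25.1%, 24.0% and 22.2% were lower on Illumina and 20.7%, 24.0% and 28.1% on Ion Torrent. Without mouse UNT_9584 the members' counts were 12, 15 and 9 on Illumina, and 5, 5 and 6 on Ion Torrent. Over all genes in that fit 22.97%, 23.09% and 23.96% were lower on Illumina and 19.29%, 22.15% and 25.19% on Ion Torrent. In each range the Ion Torrent counts were thus no larger a share than over all genes, and the Illumina counts were a larger one. Without mouse UNT_9584 the correlations over the 80 genes were -0.16, -0.24 and -0.24, and -0.16, -0.13 and -0.15 over all genes. The points share the same libraries, and the relation across genes is a description.

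**Figure D2:**
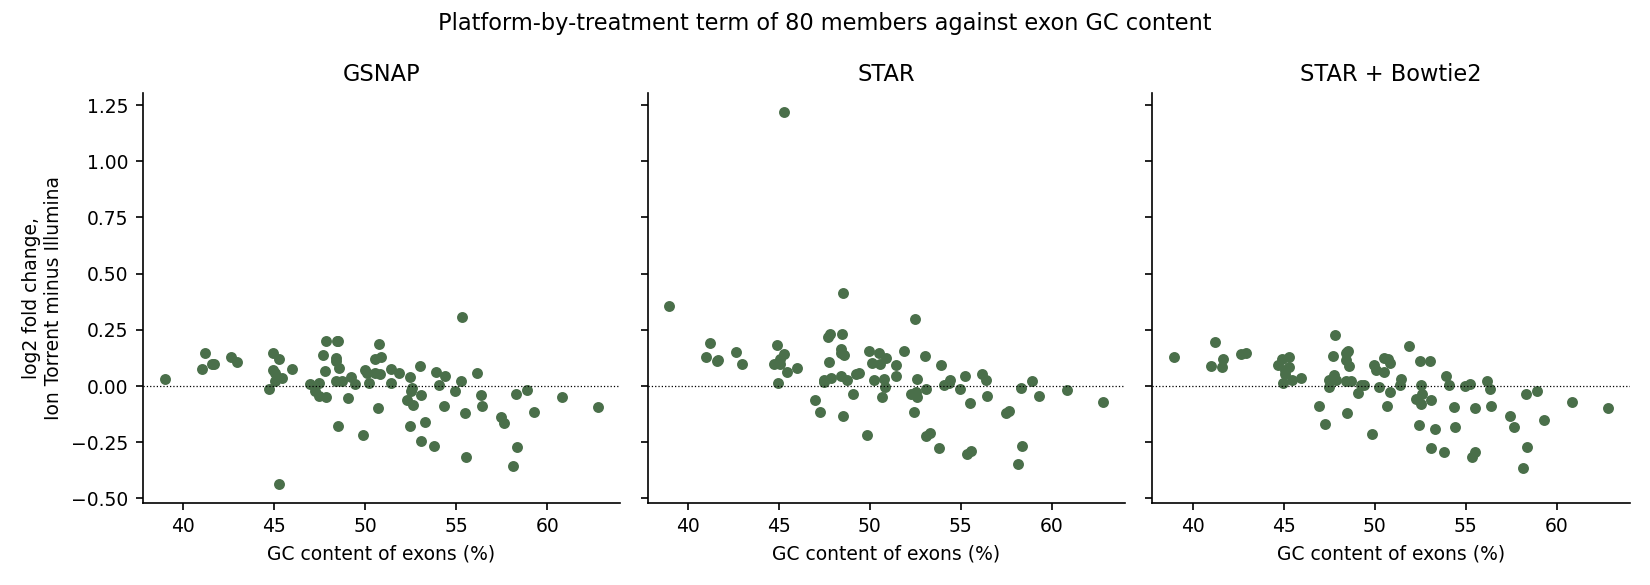
Platform-by-treatment term (Ion Torrent minus Illumina log2 fold change, y axis) against the GC percentage of the exons (x axis) of the 80 tested genes, with all 10 mice in the fit. The points slope down, with Spearman's rho of -0.51 for GSNAP, which was -0.16 without mouse UNT_9584.

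The level of a subunit gene, as distinct from its change, depended on the aligner where the genome holds copies of it. Processed pseudogenes are spliced copies without introns, and a read from the messenger RNA can match both places. Of the tested genes, 20 had at least 1 genomic copy with at least 95% identity over at least 80% of the coding sequence, by BLAST against NCBIM37, 59 had none and Atp5l2 has no coding sequence in the annotation. With copies, the level on Illumina with GSNAP was a median of 49.9% of that with STAR (range 1.92% to 103%), and 15 of the 20 were below 75%. Without copies the median was 102% (80.9% to 107%), and none of 59 was below 75%. On Ion Torrent the medians were 84.0% and 98.4%, with 8 of 20 and 0 of 59 below 75% and a range with copies of 32.3% to 581%. The highest was Atp5l, which held a mean of 172.5 counts with GSNAP and 24.8 with STAR there, so on that platform GSNAP was not always the lower. Among the 11929 genes above a floor on the mean STAR count on Illumina, 3.66% were below 75%. Among the 11805 such genes on Ion Torrent, 2.06% were.

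Cox7c, a small subunit of complex IV, and Atp5g1 show how close the copies are. The coding sequence of Cox7c is identical over its 192 bases to the pseudogene Gm12338 (chr11:75413265-75413456, minus strand, NCBIM37). Relative to Cox7c, Gm3386 (chr14:39193733-39193924, plus strand) has C68A and A173G, and Gm10012 (chr17:26038807-26038998, plus strand) has G30C and G107A, counted from the first coding base. The end of Atp5g1, coding bases 340 to 411, differs from Gm10039 (chr11:100223030-100223101, minus strand) by G385A. Capitals mark the differing bases.
Cox7c and Gm12338: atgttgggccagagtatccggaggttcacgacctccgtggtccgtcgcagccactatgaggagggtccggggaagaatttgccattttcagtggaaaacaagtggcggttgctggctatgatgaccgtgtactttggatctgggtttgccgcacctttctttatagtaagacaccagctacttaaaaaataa
Gm3386: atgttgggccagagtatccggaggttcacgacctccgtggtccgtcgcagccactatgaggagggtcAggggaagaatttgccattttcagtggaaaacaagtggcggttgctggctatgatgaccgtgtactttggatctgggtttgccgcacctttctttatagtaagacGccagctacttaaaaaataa
Atp5g1: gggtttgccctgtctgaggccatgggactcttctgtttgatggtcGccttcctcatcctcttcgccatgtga
Gm10039: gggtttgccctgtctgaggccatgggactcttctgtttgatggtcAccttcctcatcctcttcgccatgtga

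For some of these genes the counts lay largely on the copies. In the Illumina libraries the row of Gm10039 held a mean of 1062 counts with GSNAP and 13.4 with STAR, while Atp5g1 itself held 417 with GSNAP. With the copies added, Atp5g1 came to 1479 counts, Atp5h went from 327 to 1581, Cox7c from 144 to 646 and Atp5l from 19.1 to 790 in the Illumina GSNAP table. The same sums with STAR were 1368, 1707, 1422 and 937. For other genes the sum with copies stayed far below that with STAR. Atp5g2 went from 10.3 to 25.6 and Ndufb4, an accessory subunit of complex I, from 41.1 to 51.5 with GSNAP, where STAR gave 501.9 and 273.7. The direction of the calls did not turn on this. With the copies added, 41 genes were called lower in the Illumina GSNAP table and 22 in the Ion Torrent GSNAP table, beside 39 and 22 without them. The share of all genes was not computed in the fits with copies added. Atp5h stayed lower, at -0.39 and -0.29, Ndufs5, an accessory subunit of complex I, became called on Illumina, at -0.32 (edgeR adjusted p = 0.0182), and Atp5g1 stayed uncalled. Across aligners, the log2 fold changes on Illumina spanned a median of 0.06 for the 20 genes with copies and 0.03 for the 59 without, with the widest span, 0.51, for Atp5g2.

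**Figure D3:**
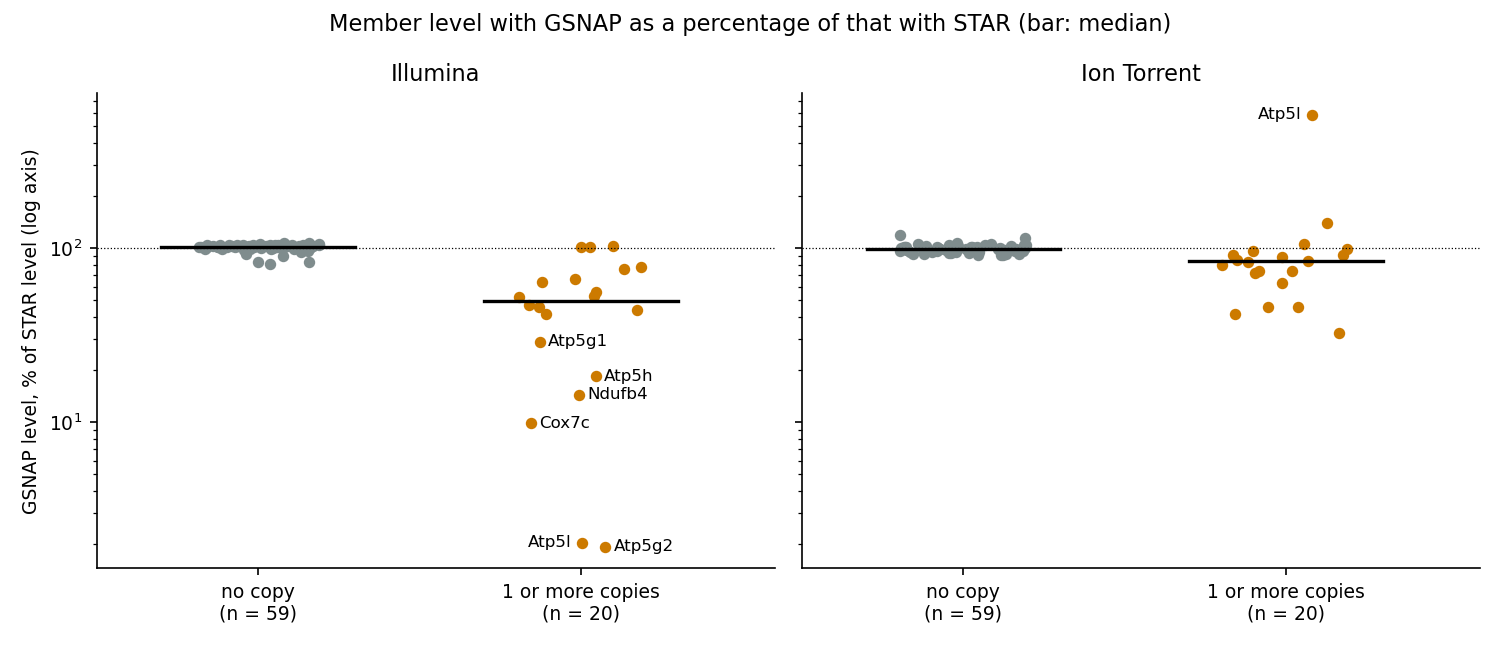
Level with GSNAP as a percentage of the level with STAR (log axis) for tested subunit genes with and without a near-identical genomic copy, on Illumina and Ion Torrent. On Illumina 15 of 20 genes with a copy lie below 75% and none of the 59 without a copy do.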

How the data were processed

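The authors aligned the reads of each platform to mm9 with GSNAP, STAR (2.5.1b), or STAR followed by Bowtie2 (2.2.9) and used their PORT pipeline to remove ribosomal and mitochondrial reads, re-sample the libraries of a table to equal size and count reads per gene. The deposited values are these whole-number counts. Both kits made strand-specific libraries, and whether this counting used strand is not given in the sources used here.

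Each of the 6 tables was fitted alone with edgeR 4.0.16 (R 4.3.3), with TMM factors and the quasi-likelihood F test of 5 ILB against 5 UNT mice. P-values were adjusted by Benjamini-Hochberg over the 15578 genes with at least 5 reads in 5 libraries of any table, and a gene was called at an adjusted p below 0.05. CPM values use TMM-scaled library sizes. No test was made on the summed levels. Levels between genes are CPM per kb of exon in the NCBIM37 annotation. Tables were normalized separately, so levels set across them are descriptions. The replicates were separate mice.

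The platform-by-treatment term was fitted over 20 libraries with mouse as a block, since both libraries of a mouse come from the same RNA. Their deviations from the group means correlated in every mouse, with r from 0.195 to 0.762, the lowest for mouse UNT_9584.

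Genomic copies were searched with BLAST+ 2.17.0. Alternatives used DESeq2 1.42.0, limma-voom (limma 3.58.1), a rank-sum test, other filters, scaling by totals and leaving out each mouse. The sum with copies and the repeats of counts by complex without mouse UNT_9584, UNT_9580, ILB_9578 or ILB_9583 were chosen after seeing the data. The scripts were tested on simulated data.

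The genes and lists were chosen with earlier results of these data known. Named genes were a set of core subunits and isoform sets taken whatever their values, the symbol matches Cox4nb, Atp5s and Atp5sl, which are not subunits, in each complex up to 3 highest and 3 lowest fold changes called in the Illumina GSNAP table with the same sign in all 6 tables, the 5 genes with the largest ratio of levels between aligners, and from each list up to 2 highest and 2 lowest called in all 6 tables, beside 7 regulators and carriers taken whatever their values. Other genes named were chosen after their values were seen. One gene of the set is not reported by name here.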

Additional observations from a re-analysis of the deposited data

Results flagged for a closer look

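Of 72 groups of 5 mice examined (summed levels by complex and 12 leading genes in the GSNAP tables), 7 held a mouse far from the other 4, with a gap above 0.71 of the group's range. About 1 in 20 independent groups of normally distributed values would pass that cutoff. The groups here share mice, RNA and genes, so whether 7 is more than chance gives cannot be read from this rate. Atp5a1 was at 1612 CPM on Illumina and 1522 CPM on Ion Torrent in untreated mouse UNT_9580, and at 745 CPM on Ion Torrent in treated mouse ILB_9578. Cox5a was at 164 CPM on Illumina in untreated mouse UNT_9584. Treated mouse ILB_9578 was lowest for Ndufa6, at 53.3 CPM, and for Sdhc, at 130.4 CPM, on Illumina. Ndufs1 was at 123 CPM on Ion Torrent in untreated mouse UNT_9575. The cause of these gaps was not tested.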

How the results depend on the processing

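The lower calls in the order Illumina GSNAP, STAR, STAR + Bowtie2, then Ion Torrent in the same order, were 39, 37, 40, 22, 18 and 26. Without TMM factors they were 52, 54, 52, 50, 48 and 53, by the rank-sum test on the deposited counts, which drops the TMM factors as well, 53, 55, 55, 57, 54 and 53, by DESeq2 42, 41, 41, 25, 20 and 27, by limma-voom 43, 43, 42, 25, 23 and 28, and with no filter 29, 32, 35, 18, 11 and 23. With 1 mouse left out they ran from 30 to 43, 27 to 38, 31 to 42, 15 to 26, 10 to 20 and 15 to 29. Of all genes, edgeR called 21.8% to 24.4% lower with TMM factors and 26.6% to 29.0% without them. Without UNT_9584, UNT_9580, ILB_9578 or ILB_9583 it called 19.6% to 23.8%. The share of all genes was not computed for the rank-sum test, DESeq2, limma-voom or no filter. Those counts are therefore no result about these genes in particular. The higher call was lost in the Illumina GSNAP table by the rank-sum test on unscaled counts (0), and in all 6 tables when Cox4nb, Atp5s and Atp5sl were set aside (0). With 1 mouse left out it was 1 to 2 on Illumina, the second gene being Atp5g1 without mouse UNT_9580, and 1 on Ion Torrent. The platform-by-treatment count was 0 in every fit, also with no replicate block (0 with each aligner), and at an unadjusted p it was 2, 6 and 3 with the mouse pairing and 0, 0 and 0 without the block, and with 1 mouse left out it ran from 0 to 15, 4 to 13 and 1 to 17, with the highest counts without ILB_9583 and without UNT_9580. Of 3960 values of named genes with 1 mouse left out, 151 lost their call, 36 gained one and none reversed. Of 2421 values under the other settings, 38 lost their call, 162 gained one and none reversed. Another 71 and 44 values that were not called changed sign. The causes were not tested.

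The order of levels by exon length and by longest transcript correlated at 0.939 to 0.956 over the 80 genes. Cox7a1 had few reads in every table (group means of 6.8 to 22.6 counts), and no comparison was made for the 7 genes under the filter.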
